A study of Mus musculus with 6 samples.

Results

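Abundant noncoding RNAs of the nucleus and of RNA polymerase III were examined in sequenced total RNA of mouse neural progenitor cells (NPCs), through 8 genes: Rn7sk, Rmrp, Rpph1, Rny1, Rny3, Terc, Malat1 and Neat1. They were listed by name and not by a measured value, although with earlier results of these data known. All 8 were found among the 51733 gene symbols of the count tables. NPCs positive for Sox2 were sorted from neural tubes of embryos at stage E13.5, and 3 control libraries (A, B and C) were compared with 3 from Ybx1-KO NPCs (D, E and F). Embryos lacking Ybx1 were homozygous for the constitutive null allele Ybx1tm1Ley, so that Ybx1 was lost in every cell of the embryo, and controls were labelled wildtype. The strain was given as C57BL/6 for both groups, and the study's reporter for sorting was Sox2-eGFP (B6;129S1-Sox2tm1Hoch/J). The comparison asked how RNA levels differ in NPCs without Ybx1, which encodes a protein that binds RNA and DNA.

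Most of these RNAs carry no poly(A) tail, so total RNA libraries count them where poly(A)-selected libraries would not. RNA polymerase III makes the 7SK RNA, which holds the elongation kinase P-TEFb in an inactive complex, the catalytic RNAs of the endonucleases RNase MRP (Rmrp) and RNase P (Rpph1), and the small Y RNAs (Rny1 and Rny3), which are bound by the protein Ro60. RNA polymerase II makes Terc, the RNA template of telomerase, and the long RNAs Malat1, found in nuclear speckles, and Neat1, around which paraspeckles are built. Neural progenitors are dividing cells, in which pre-rRNA and tRNA processing by these ribonucleoproteins and telomere repeat synthesis accompany growth.

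In the GENCODE M21 annotation of GRCm38, Terc is a single exon on chr3:96414437-96414859, minus strand, 423 bases long. Rmrp is a single exon on chr4:43492783-43493063, minus strand, where a lincRNA model of 281 bases encloses a ribozyme model of 271. Rpph1 is on chr14:50807449-50807767, minus strand, and Rn7sk on chr9:78175303-78175633, minus strand, each a single noncoding exon of 319 and 331 bases. Rny3 (chr6:47781624-47781725, plus strand) and Rny1 (chr6:47788069-47788180, minus strand) are 102 and 112 bases long and lie 6343 bases apart. Malat1 (chr19:5795690-5802672) and Neat1 (chr19:5824708-5845478) are on the minus strand with exon lengths of 6983 and 20771 bases, and 22035 bases separate them.

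The sequences of the RNAs on which the results turn are given from the annotation's transcripts, 5′ to 3′ and with T for U. For Terc, whose counts separated the groups, the first 110 bases are shown with the telomere template letters CTAACCC in capitals, and the last 40 bases with the ACA of its 3′ box in capitals.
Terc start: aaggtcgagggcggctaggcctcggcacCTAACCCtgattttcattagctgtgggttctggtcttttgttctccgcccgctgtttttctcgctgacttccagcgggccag
Terc end: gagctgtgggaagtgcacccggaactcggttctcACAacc
Rmrp is shown whole, and Rpph1 by its first 300 bases, because these related catalytic RNAs differed in how their libraries were ordered. Their longest shared stretch is 9 bases.
Rmrp: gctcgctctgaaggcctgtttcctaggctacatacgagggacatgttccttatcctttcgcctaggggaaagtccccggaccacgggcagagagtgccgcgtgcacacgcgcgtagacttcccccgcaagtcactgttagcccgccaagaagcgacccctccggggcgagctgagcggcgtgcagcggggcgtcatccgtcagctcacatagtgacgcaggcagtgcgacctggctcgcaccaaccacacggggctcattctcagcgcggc
Rpph1 start: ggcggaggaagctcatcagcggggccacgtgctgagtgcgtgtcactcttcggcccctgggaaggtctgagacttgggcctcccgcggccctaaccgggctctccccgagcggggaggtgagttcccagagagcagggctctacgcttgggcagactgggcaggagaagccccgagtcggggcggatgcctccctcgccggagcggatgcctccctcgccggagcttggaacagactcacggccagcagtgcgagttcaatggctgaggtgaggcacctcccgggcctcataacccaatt
For Rn7sk, its start is shown, with each GATC in capitals, the letters of the repeat in the first hairpin to which HEXIM proteins bind.
Rn7sk start: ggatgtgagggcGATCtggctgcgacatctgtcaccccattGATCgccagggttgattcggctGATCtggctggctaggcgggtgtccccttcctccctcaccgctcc
Rny1 and Rny3 are shown to mark how short they are; capitals mark the 12 bases of their longest shared stretch, and both end in a run of T, where RNA polymerase III stops.
Rny1: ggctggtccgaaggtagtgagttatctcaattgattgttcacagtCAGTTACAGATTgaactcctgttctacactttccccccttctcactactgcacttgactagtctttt
Rny3: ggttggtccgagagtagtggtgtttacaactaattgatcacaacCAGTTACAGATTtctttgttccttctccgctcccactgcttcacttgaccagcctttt

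The libraries held 20841990 to 23883542 counts on genes in control NPCs and 4743279 to 13321952 in Ybx1-KO NPCs, so that a floor of 3 counts corresponded to 0.140 to 0.426 CPM (counts scaled to a common library total). The RNA of Ybx1 itself, the targeted gene, was at 238, 531 and 306 CPM in A, B and C and at 126, 55.4 and 9.66 CPM in D, E and F, lower in every Ybx1-KO library. In library F only 7.22% of read pairs fell on genes and 59.5% outside them, and genes of olfactory, taste and vomeronasal receptors carried 3.78 counts per kb there and 0.0376 to 0.362 in the other libraries. Titles of A and B share a first number, as do those of D and E, with no meaning given; if it marks a litter, the p-values below rest on fewer independent animals, and they measure the spread between these libraries only. Summed markers of neural progenitors (8 of 8 counted in every library) were at 1453 to 1622 CPM in control and 1100 to 1838 in Ybx1-KO NPCs. Those of neurons (8 of 8) were at 3023 to 4475 against 1228 to 3242, erythroid cells (8 of 8) at 480 to 1170 against 164 to 953, and mesenchyme (6 of 6) at 158 to 791 against 87.3 to 145. Endothelial markers (5 of 6) were at 20.5 to 50.5 against 13.3 to 47.2 and those of microglia and macrophages (2 of 6) at 9.22 to 37.0 against 3.52 to 40.4, and none of these markers was at 0 throughout; their part in the results was not tested. A lower share of a cell type and less of an RNA per cell cannot be told apart in such bulk samples.

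The 8 RNAs together took 0.855%, 0.771% and 0.256% of the counts on genes in A, B and C, and 0.700%, 0.446% and 0.512% in D, E and F. Per length, as FPKM (counts per kilobase of exon, scaled to each library's counts on genes), Malat1 led in control NPCs with 851 ± 499 (SD, n = 3). Rn7sk followed at 737 ± 672, which did not differ from Malat1 beyond the spread, then Rmrp at 177 ± 97.5 and Rpph1 at 101 ± 31.7, which again lay within each other's spread. Terc stood lower at 9.03 ± 1.42 FPKM, outside the range of those 4 in every control library, and Rny3 (1.67 ± 1.04), Neat1 (0.274 ± 0.154) and Rny1 (0.263 ± 0.228) were near the limit of detection or of low density. In Ybx1-KO NPCs Rn7sk led at 2085 ± 879 FPKM, ahead of Rpph1 (879 ± 1312), Rmrp (799 ± 497) and Malat1 (615 ± 71.4), and these last 3 did not differ beyond their spread. Terc was at 45.1 ± 16.5 FPKM, Rny3 at 5.64 ± 9.14, Rny1 at 5.14 ± 8.32 and Neat1 at 0.745 ± 1.13. Among 47983 genes with an exon length, Terc ranked 3146 to 4509 by FPKM in the control libraries and 471 to 847 in the Ybx1-KO libraries, and Rmrp 70 to 176 and 22 to 46.

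Of the 7 RNAs that passed the filter on low values (a mean FPKM above 1 in either group), 6 had a higher and 1 a lower estimate in Ybx1-KO NPCs, beside 61.3% of the 21325 tested genes with a log2 fold change above 0. Their median log2 fold change was 2.07, against 0.31 over all tested genes. Rny1 passed the filter only through its Ybx1-KO mean, which rested on library D, and without the sparsely counted Rny1 and Rny3, 4 of 5 RNAs had a higher estimate, with a median of 2.07. By the quasi-likelihood test of edgeR, with p-values adjusted over all tested genes after Benjamini and Hochberg, none of the 7 reached the threshold of 0.05, and no other gene did so either (0% of tested genes in each direction). At an unadjusted p below 0.05, 3 of the 7 were higher, beside 6.96% of all tested genes, and none was lower, beside 4.26%. In 2 of the 7, Terc and Rmrp, the lowest Ybx1-KO library exceeded the highest control library, beside 4.99% of tested genes that did so, and in none did all lie below, beside 8.15%. Without library F, the groups stood apart in this direction for 5 of the 7, Rn7sk, Rmrp, Rpph1, Rny1 and Terc, beside 10.3% of tested genes, although Rny1 then rested on 14 and 1 counts. The tested genes remained those that passed the filter with library F included. The plot of normalized counts by library shows these patterns gene by gene.

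**Figure D1:**
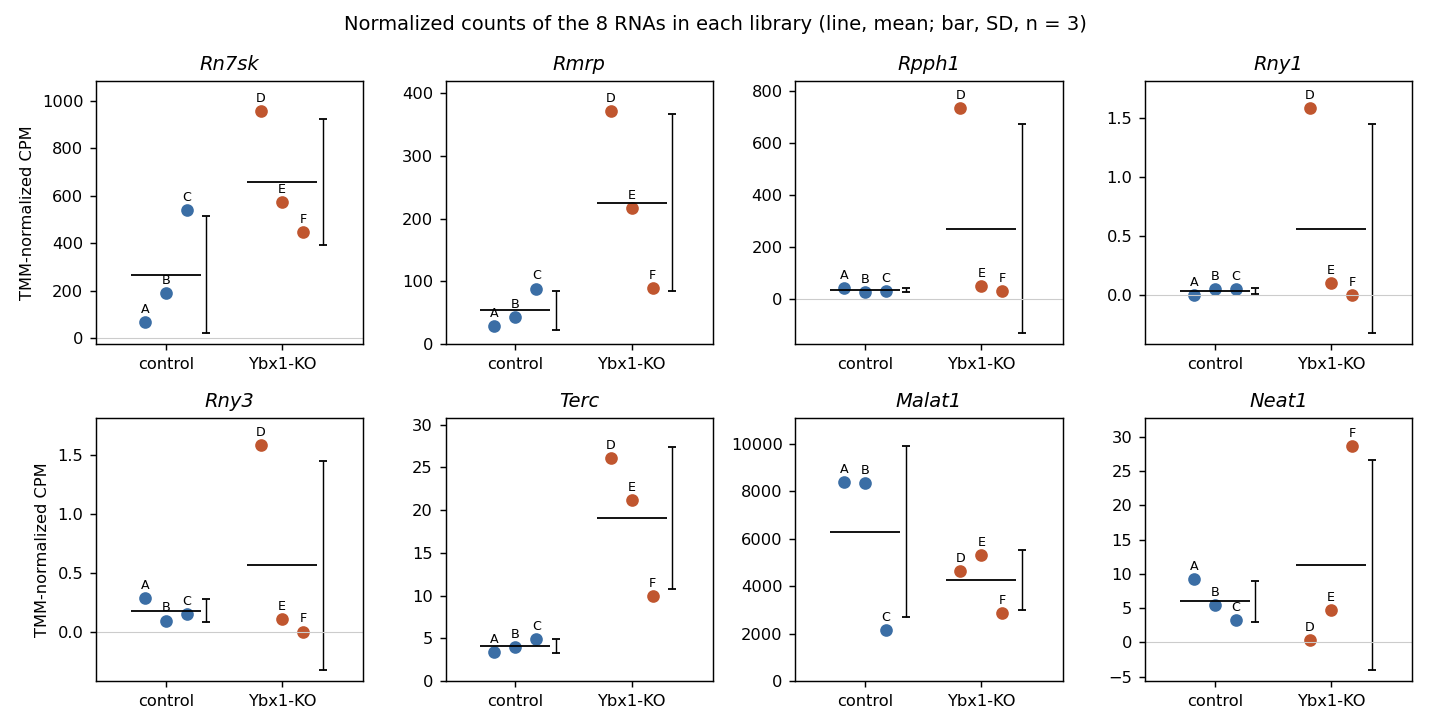
TMM-normalized CPM (vertical axes, linear, each with its own range) of the 8 RNAs in control (A to C) and Ybx1-KO (D to F) libraries. Points are libraries, horizontal lines group means and bars the SD (n = 3). Terc and Rmrp are the panels in which all 3 Ybx1-KO points lie above all 3 control points, while Rpph1 is high in D alone and Neat1 in F alone.

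Terc, the telomerase template RNA, was higher in every Ybx1-KO library. Its counts were 70, 86 and 97 in A, B and C and 230, 204 and 70 in D, E and F, although the Ybx1-KO libraries were shallower. With TMM normalization (trimmed mean of M values), these were 3.36, 4.02 and 4.93 CPM in control and 26.1, 21.2 and 9.95 CPM in Ybx1-KO NPCs. The groups did not overlap, and even the lowest Ybx1-KO library, F, was above the highest control library, C. The log2 fold change was 2.22 ± 0.52 (SE), a fitted fold of 4.65, with an unadjusted p of 5.4e-04 and an adjusted p of 0.235 by edgeR. A two-sided exact permutation test gave p = 0.1, the smallest that 3 against 3 libraries allow. Leaving out each library in turn kept the log2 fold change between 1.92 (without D) and 2.50 (without F).

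Among the genes of the telomerase proteins, Dkc1 had lower values where Terc had higher ones. Dkc1, which encodes the pseudouridine synthase dyskerin that binds the H/ACA end of Terc, was at 56.4, 63.0 and 56.5 CPM in control and 22.5, 37.5 and 32.97 CPM in Ybx1-KO NPCs. All its Ybx1-KO values lay below all control values, and the log2 fold change was -0.92 ± 0.37 (adjusted p = 0.439). Within each library, the counts of Terc were 5.95%, 6.38% and 8.72% of those of Dkc1 in control NPCs and 116%, 56.5% and 30.2% in Ybx1-KO NPCs. The ratio was 8.39-fold higher on average, for a pair chosen after its values were seen. With Terc above and Dkc1 below in all Ybx1-KO libraries, their ratio had to separate the groups. Its exact permutation p of 0.1 was thus fixed in advance and adds no evidence. Tert, the reverse transcriptase, had a log2 fold change of 0.59 ± 0.51 (8.78, 9.50 and 5.69 against 12.4, 15.8 and 7.82 CPM) and its groups overlapped. Wrap53, whose protein guides telomerase to Cajal bodies, was at 6.52, 6.79 and 7.11 CPM in control and 17.1, 13.3 and 7.96 CPM in Ybx1-KO NPCs, a difference in the same direction in all libraries (0.91 ± 0.51 on the log2 scale, adjusted p = 0.455), and Gar1, another H/ACA protein, did not overlap either (0.46 ± 0.39). Of the 9 tested genes of the telomerase list, 8 had estimates above 0, beside 61.3% of all tested genes. The list median was 0.59, against 0.31 over all tested genes. Tep1, among the 8, passed the filter on low values only through its Ybx1-KO mean (1.33 FPKM, against 0.570 in control NPCs), so that filter favoured its sign. Of the 9, 2 (Wrap53 and Gar1) had all Ybx1-KO libraries above all controls, beside 4.99% of all tested genes. In 1, Dkc1, all lay below, beside 8.15%. By edgeR, 0 of the 9 passed the adjusted threshold. Dkc1 alone had an unadjusted p below 0.05, beside 4.26% of all tested genes that were lower at that p.

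Rmrp, the RNA of RNase MRP, was also higher in every Ybx1-KO library. It had 620, 915 and 1745 counts in A, B and C and 3268, 2087 and 626 in D, E and F, or 29.7, 42.8 and 88.6 CPM against 371, 217 and 89.0 CPM. The groups did not overlap, but F stood just above C, whereas D and E were far above all controls. The log2 fold change was 2.07 ± 0.55, a fitted 4.195-fold, with an unadjusted p of 0.00155, an adjusted p of 0.287 by edgeR and an exact permutation p of 0.1. It was 1.51 without D and 2.64 without C. Without E the adjusted p was 0.0257 and without F it was 0.0387.

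Rmrp shares 124 of its exon bases with Ccdc107, a protein-coding gene on the opposite strand. Ccdc107 had 831, 962 and 1782 counts in control and 2659, 1962 and 678 in Ybx1-KO NPCs (log2 fold change 1.78 ± 0.49, adjusted p = 0.323). The ratio of Rmrp to Ccdc107 counts was between 0.746 and 1.23 in all 6 libraries, and after TMM normalization both genes ordered the libraries alike, from A through B, C, F and E to D. Genes nested in an exon on the opposite strand did receive counts, so reads were assigned by strand, but in 28 pairs of an antisense gene lying wholly in the exons of a protein-coding host with sufficient counts, the antisense gene had a median of 1.12 to 1.42 times the counts per kb of its host. Counts of overlapping genes on opposite strands are therefore uncertain, the strand setting of the counting is not given in the sources used here, and whether Ccdc107 counts come from Rmrp RNA was not tested.

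Rpph1, the RNA of RNase P, was high in a single library. It had 905, 571 and 628 counts in A, B and C and 6478, 461 and 203 in D, E and F, which were 43.4, 26.7 and 31.9 CPM in control NPCs and 735, 47.9 and 28.8 CPM in Ybx1-KO NPCs. Library D stood far above all others, and E and F lay in or next to the control range. The log2 fold change of 2.99 ± 0.87 (unadjusted p = 0.00330, adjusted p = 0.356 by edgeR; exact permutation p = 0.4) fell to 0.18 without D. It passed the threshold without E (adjusted p = 0.00185) and without F (0.0387), in both of which D stayed in. Rpph1 shares 233 of its 319 exon bases with Ccnb1ip1 on the same strand, a gene with 0 to 15 counts, and reads assigned to both are not counted.

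Rprl3, an RNase P RNA-like gene, had 4, 1 and 10 counts in control and 70, 33 and 10 in Ybx1-KO NPCs, or 0.192, 0.0468 and 0.508 CPM against 7.94, 3.43 and 1.42 CPM. All Ybx1-KO libraries were above all control libraries, and D was highest here as well (log2 fold change 4.06 ± 1.43, unadjusted p = 0.0118, adjusted p = 0.420). Rprl3 passed the filter on low values only through its Ybx1-KO mean (14.8 FPKM, against 0.801 in control NPCs), so that filter favoured a higher estimate. Reads common to near-identical copies were left uncounted, so the split between such genes is uncertain. Across the protein subunits of RNase P and RNase MRP, 10 of 11 genes were tested, with a median log2 fold change of 0.11, no overlap-free gene and 0 at an unadjusted p below 0.05. Pop1, the largest shared protein subunit, had a log2 fold change of -0.09 ± 0.56, Rpp21 one of 0.54 ± 0.51 and Rpp25 one of 0.42 ± 0.51.

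Within libraries, Rmrp counts were 68.5%, 160% and 278% of Rpph1 counts in control NPCs and 50.4%, 453% and 308% in Ybx1-KO NPCs. The groups overlapped, with D lowest and E highest of all, and the mean log2 ratio differed by 0.40 (exact permutation p = 0.7). The ratio of these catalytic RNAs varied as widely within each group as between the groups.

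Rn7sk, the 7SK RNA, had the most counts of the 8 RNAs after Malat1. It had 1390, 4086 and 10651 counts in A, B and C and 8435, 5524 and 3135 in D, E and F, or 66.7, 191 and 541 CPM against 956, 574 and 446 CPM. Control library C lay above F, and A stood far below all the others, so the controls alone spanned 8.12-fold. The log2 fold change was 1.31 ± 0.63 (adjusted p = 0.448 by edgeR, exact permutation p = 0.2), ranging from 0.84 without A to 2.35 without C. Larp7, which binds the 3′ end of 7SK, was at 49.0, 49.3 and 41.8 CPM in control and 41.7, 39.7 and 29.0 CPM in Ybx1-KO NPCs, with C and D nearly equal (log2 fold change -0.34 ± 0.36). Mepce, the enzyme that caps 7SK, had a log2 fold change of 0.65 ± 0.44 and Hexim1, the kinase inhibitor of the complex, one of -0.37 ± 0.43, each with overlapping groups. Hexim2 (1.40 ± 0.75) was at 23.8 CPM in D and at 3.28 to 4.22 CPM in the other 5 libraries, and Aff4 had an estimate of -0.68 ± 0.44. Of the 9 tested genes of the 7SK and P-TEFb list, 4 had estimates above 0, beside 61.3% of all tested genes, and 5 below. The list median was -0.23, with 0 genes at an unadjusted p below 0.05.

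The Y RNAs were barely counted. Rny1 had 0, 1 and 1 counts in A, B and C and 14, 1 and 0 in D, E and F, and Rny3 had 6, 2 and 3 counts against 14, 1 and 0. Only D had more than the 3 counts taken as the floor for Rny1, and for Rny3 only A and D did, so that their fitted log2 fold changes, which stand among the estimates of the 7 tested RNAs, bound nothing. Where 0 counts were found, in A for Rny1 and in F for both, up to 0.144 and 0.426 CPM could have gone undetected. Ro60, whose protein binds Y RNAs, was at 88.1, 120 and 57.5 CPM in control and 37.5, 71.5 and 40.8 CPM in Ybx1-KO NPCs (log2 fold change -0.83 ± 0.41, adjusted p = 0.450), with C below E. Ssb, which encodes the La protein that binds the 3′ ends of RNA polymerase III transcripts, had a log2 fold change of -0.31 ± 0.40. Igf2bp1, which encodes an RNA-binding protein found with Y3 RNA, had one of 1.31 ± 0.49 with an unadjusted p of 0.0169 and an adjusted p of 0.432, and its groups overlapped through control B. Of the 6 genes of this list, 4 had estimates above 0, beside 61.3% of all tested genes, with a median of 0.28.

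Malat1 made up most of the counts on the 8 RNAs, 98.2%, 96.9% and 76.1% in A, B and C and 68.9%, 86.0% and 82.6% in D, E and F. It had 175116, 178339 and 42060 counts in control and 40913, 51058 and 20069 in Ybx1-KO NPCs, or 8400, 8347 and 2137 CPM against 4639, 5303 and 2852 CPM. Control C was the lowest of all 6 libraries, and the Ybx1-KO libraries lay between C and the other controls. The log2 fold change was -0.56 ± 0.74 (adjusted p = 0.728 by edgeR, exact permutation p = 0.6), and it stayed between -0.97 and -0.29 with any library left out. Gm37376, a transcript model of 453 bases on the strand opposite Malat1, carried 90368, 69511 and 17026 counts in control and 25355, 16298 and 11118 in Ybx1-KO NPCs, while Gm27694, nested in Malat1 on the same strand, had 0 in all 6; the counts of Gm37376 carry the same uncertainty as those of other antisense genes. Speckle proteins were near 0 as a list, with a median of -0.11 over 10 genes and 0 at an unadjusted p below 0.05. Srsf2, a splicing factor of speckles, had a log2 fold change of 0.11 ± 0.47 and Rnps1 one of 0.54 ± 0.41, while Srsf3 (-0.51 ± 0.45) was at 395 to 621 CPM in control and at 334 to 381 CPM in Ybx1-KO NPCs.

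Neat1 was of low density and did not pass the filter. Its 20771 exon bases held 192, 117 and 64 counts in A, B and C and 3, 46 and 202 in D, E and F, or 9.21, 5.48 and 3.25 CPM against 0.340, 4.78 and 28.7 CPM. The Ybx1-KO libraries D and F were the lowest, at the floor of 3 counts, and the highest of all, and the controls lay between them. The mean log2 CPM was lower by 0.56 in Ybx1-KO NPCs (-0.56, exact permutation p = 0.8), and the sign turned to 1.09 without D. If the receptor-gene density of each library held over the Neat1 exons, 78.5 of the 202 counts in F and 6.85 of the 192 in A would be of that kind, against 26.4 of the 20069 counts of Malat1 and 1.599 of the 70 of Terc in F. The ratio of Neat1 to Malat1 counts was 0.110%, 0.0656% and 0.152% in control and 0.00733%, 0.0901% and 1.01% in Ybx1-KO NPCs, and the mean log2 ratio differed by -0.17 (exact permutation p = 0.9).

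The core paraspeckle proteins Nono and Sfpq had log2 fold changes of -0.65 ± 0.46 and 0.38 ± 0.46, and Rbm14 one of 0.88 ± 0.48, all with overlapping groups. Of the 10 genes of the paraspeckle list, 6 had estimates above 0, beside 61.3% of all tested genes, and the median was 0.12.

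Summed over the 5 RNAs made by RNA polymerase III, counts were 1.67%, 3.12% and 30.9% of those of the 3 RNAs made by RNA polymerase II in A, B and C, and 44.3%, 15.7% and 19.5% in D, E and F. Control C fell among the Ybx1-KO libraries and A and B far below them. The mean ratio was 4.39-fold higher in Ybx1-KO NPCs, 2.13 on the log2 scale, with an exact permutation p of 0.3, and this log2 difference was 1.28 without A and 3.39 without C. Terc, an RNA polymerase II product like Malat1, was at 0.0400%, 0.0482% and 0.231% of Malat1 counts in control and 0.562%, 0.400% and 0.349% in Ybx1-KO NPCs, without overlap (exact permutation p = 0.1, for a ratio also chosen after its values were seen). The log2 ratios of Rmrp and Rn7sk to Malat1 were higher by 2.36 and 2.08, with overlapping groups (exact permutation p = 0.3 and 0.4). Terc to Rmrp differed by 0.12, also with overlap (exact permutation p = 0.7). The plot of ratios within libraries sets those of RNA polymerase III to II, Rmrp to Rpph1 and Neat1 to Malat1 beside that of Terc to Dkc1.

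**Figure D2:**
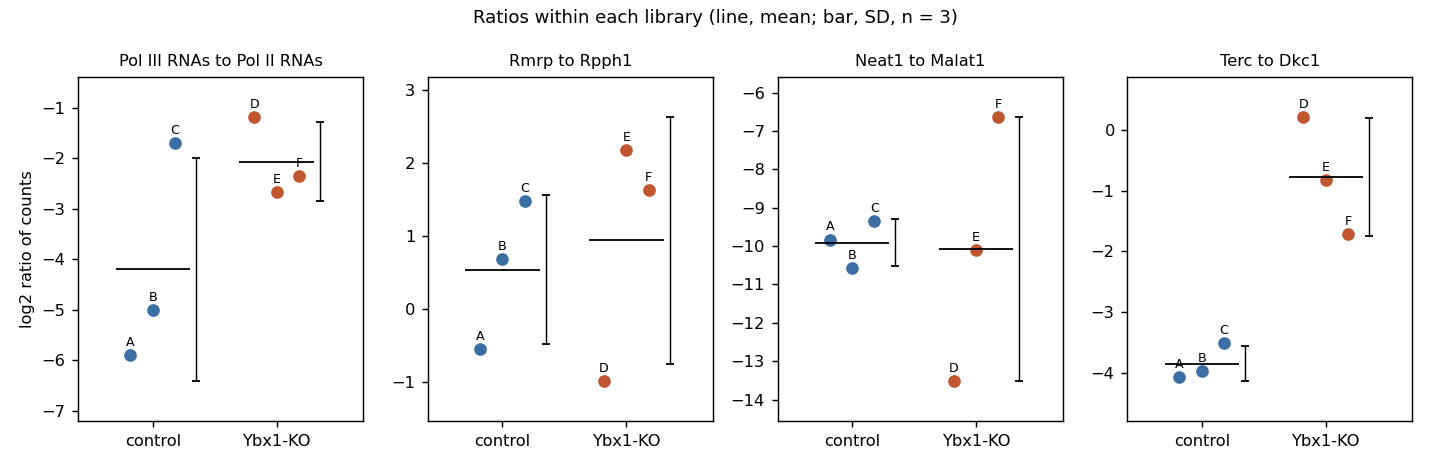
Log2 ratios of counts (vertical axes) within each control library (A to C) and Ybx1-KO library (D to F), for the summed RNA polymerase III RNAs over the RNA polymerase II RNAs, Rmrp over Rpph1, Neat1 over Malat1 and Terc over Dkc1. Points are libraries, lines group means and bars the SD (n = 3). In the first 3 panels the groups overlap. In the last they do not, which follows from the values of Terc and of Dkc1 taken alone.

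The genes of the RNA polymerase III machinery had medians near 0. All 13 subunit genes were tested, 8 with estimates above 0 and 5 below, beside 61.3% of all tested genes above 0. Their median log2 fold change was 0.05, against 0.31 over all tested genes. Polr3a, the largest catalytic subunit, had an estimate of -0.10 ± 0.40, and Polr3g and Polr3gl, which encode alternative subunits, had 0.54 ± 0.84 and 0.70 ± 0.51. Polr3g passed the filter on low values only through its Ybx1-KO mean (1.86 FPKM, against 0.920 in control NPCs). Among 19 genes of its transcription factors, 9 had estimates above 0 and 10 below, with a median of -0.10. Brf1, used at tRNA genes, had an estimate of 0.37 ± 0.37, Brf2, used at genes such as Rn7sk, one of 0.63 ± 0.82, and Maf1, a repressor of the polymerase, one of 0.27 ± 0.44. Snapc3 and Snapc4, subunits of the complex that binds the promoters of small nuclear RNA genes, had lower values in all Ybx1-KO libraries (-0.65 ± 0.40 and -0.61 ± 0.42, adjusted p = 0.477 and 0.509). Snapc3 and Snapc4 were 2 of the 19, beside 8.15% of all tested genes with all Ybx1-KO libraries below all controls. None of these 32 genes had an unadjusted p below 0.05, beside 6.96% of all tested genes that were higher and 4.26% lower.

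Set beside other genes of similar length, the RNAs of 200 to 500 bases had fold changes in the middle of the range, and in its upper part once library F was left out or genes of higher abundance were taken. Tested genes of 200 to 500 exon bases other than the 8 RNAs (1829 genes) had a median log2 fold change of 2.42, above the 0.31 of all tested genes, and 3.83% of them had all Ybx1-KO libraries above all controls. Terc exceeded 47.7% of that class in log2 fold change, Rmrp 46.3%, Rpph1 56.1% and Rn7sk 36.5%. Without library F the median of the class was 0, and Terc then exceeded 93.6% of it, Rmrp 93.2%, Rpph1 97.8% and Rn7sk 87.4%. The filter on low values was set with all 6 libraries, so genes that passed it through the counts of F stayed in this class. How far such genes raise these percentages was not tested. Among the 60 genes of the class with a mean above 10 CPM, the median was 0.54, and Terc exceeded 91.7% of them, Rmrp 86.7%, Rn7sk 76.7% and Rpph1, which rests on library D, 98.3%. Scaling on genes of 200 to 500 bases moved the median of all genes to -0.35 and gave 1.64 for Terc, 1.505 for Rmrp, 2.19 for Rpph1 and 0.73 for Rn7sk. The plot of fold change against exon length shows the fall of the running median from short to long genes.

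**Figure D3:**
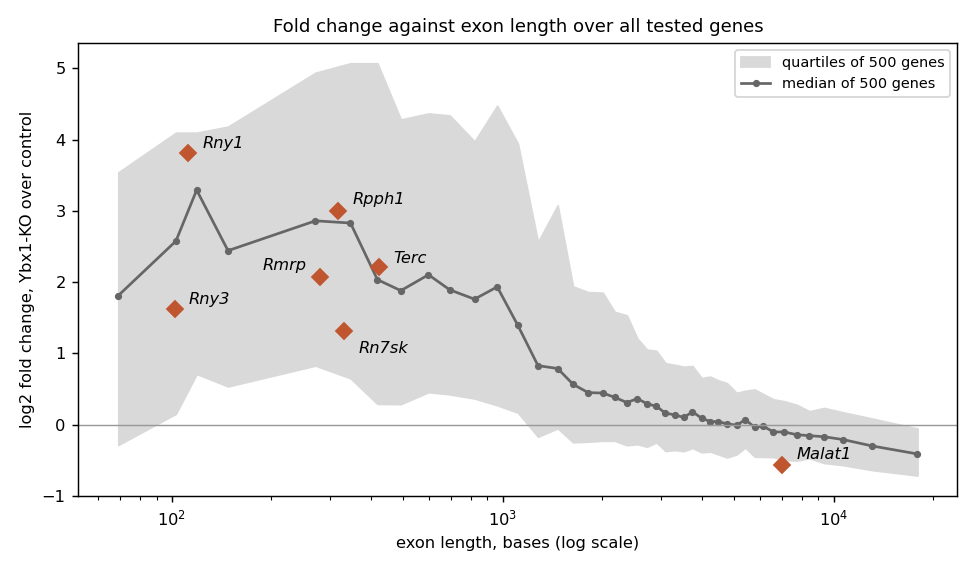
Log2 fold change of Ybx1-KO over control (edgeR, vertical axis) against exon length in bases (horizontal axis, log scale). The grey line joins medians of successive groups of 500 tested genes, shading spans their quartiles, and diamonds are the 7 tested RNAs, all short ones of which lie within the shaded band; Malat1, at -0.56, lies just below it.

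Other small structured RNAs were sparsely counted: 8 of 11 found in the tables were tested, 7 had estimates above 0, beside 61.3% of all tested genes, and their median was 1.55. Rprl3, Vaultrc5 and Rnu2-10 passed the filter on low values only through their Ybx1-KO means (14.8, 5.65 and 3.70 FPKM). Their control means were 0.801, 0.401 and 0.389 FPKM, so the filter favoured higher estimates for them, and the count and median rest partly on these genes. Rprl3 was the only one of the 8 with all Ybx1-KO libraries above all controls, beside 4.99% of all tested genes, and none lay below. Vaultrc5, a vault RNA, had 0, 3 and 1 counts in control and 17, 0 and 2 in Ybx1-KO NPCs. Among other abundant nuclear long RNAs, 3 of 8 tested had estimates above 0, beside 61.3% of all tested genes, and the median was -0.31. In 1 of the 8 all Ybx1-KO libraries lay above all controls, beside 4.99% of all tested genes, and in 2 below, beside 8.15%. Mirg (1.18 ± 0.48, adjusted p = 0.443) was higher and Meg3 (-0.75 ± 0.44) and Rian (-0.72 ± 0.39) were lower in every Ybx1-KO library, although these 3 come from 1 imprinted region. Meg3 passed the filter only through its control mean (1.59 FPKM, against 0.975 in Ybx1-KO NPCs). Mirg was at 60.0 CPM in D and at 16.2 and 20.9 CPM in E and F, against 12.2 to 15.6 CPM in control NPCs. The plot of fold changes with each library left out gives the estimates of the 7 tested RNAs side by side.

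**Figure D4:**
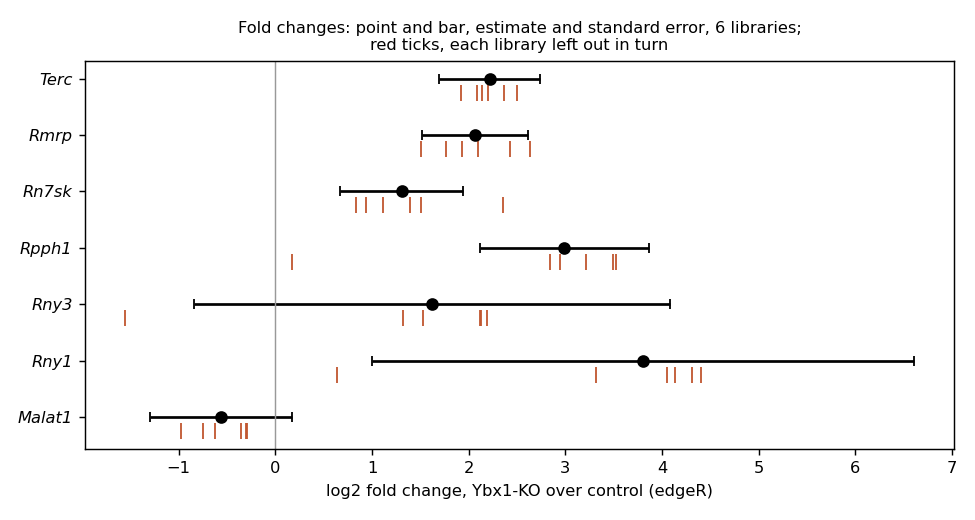
Log2 fold changes of Ybx1-KO over control (horizontal axis; edgeR) for the 7 tested RNAs. Black points and bars are estimates and standard errors from 6 libraries, and red ticks are estimates with 1 library left out; Terc and Rmrp keep all ticks above 1.5, Rpph1 has one at 0.18 (without D), and Rny3 changes sign. The values of Rny1 and Rny3 rest on at most 14 counts a library and bound nothing.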

How the data were processed

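Total RNA of Sox2-positive NPCs was sequenced as paired ends from stranded libraries. Genes nested opposite a host received counts, so reads were assigned by strand. Such genes carried as many counts per kb as their hosts, so counts of overlapping genes on opposite strands stay uncertain. After mapping, the authors used HTSeq 0.6.1p1 to count read pairs on genes, and deposited raw counts per gene symbol, 1 table per library, without normalization or pooling. Genome builds mm10 and GRCm38.p5 stand in the submitters' processing notes; the aligner and the strand setting are not given in the sources used here.

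Lines of the counter's own tallies (ambiguous, not unique, outside genes) stayed out of library sizes. Exon lengths, positions and transcript sequences came from GENCODE M21 on GRCm38, and 47624 symbols matched, 357 by an older symbol and 3752 not. Of the 8 genes, 1 (Malat1) has an entry in the RefSeq promoter table. Genes whose mean FPKM exceeded 1 in control or in Ybx1-KO NPCs (21325) were normalized by TMM and tested with edgeR 4.0.16 in R 4.3.3, without covariates. Ybx1-KO libraries were compared with control libraries by the quasi-likelihood test with Benjamini-Hochberg adjustment over all tested genes (threshold 0.05 and fold 1.5; common biological coefficient of variation 0.800). Alternatives were limma-voom (limma 3.58.1), the method of the study, DESeq2 1.42.0, other scalings and filters, and leaving out each library. Neat1 and ratios of counts (0.5 added to each) were compared by a two-sided exact permutation test. Limits from 3 counts cover counting error only, since read pairs carry no molecular identifiers. The script was tested on simulated data. Figures were drawn with matplotlib 3.10.9.

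The 8 genes, the gene lists and the tests were chosen with earlier results of these data known. Genes reported by name were the 8, Ybx1, the 2 of each pathway list with the smallest p, and 16 fixed cofactors; others named were chosen after their values were seen. A gene that meets this rule is not reported here.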

Additional observations from a re-analysis of the deposited data

Results flagged for a closer look

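Library F carried 3.78 counts per kb on olfactory, vomeronasal and taste receptor genes, data outside the comparisons, against 0.120 to 0.362 in the control libraries. Neat1, with 202 counts over 20771 bases in F, is the RNA of the 8 that this density touches most, and its part in the Neat1 value was not tested beyond that.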

How the results depend on the processing

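Terc, Rmrp, Rpph1, Rn7sk and Malat1 kept their direction in each of 13 other fits and with each library left out. Terc passed the threshold with DESeq2 only (2.28, adjusted p = 0.00429; 0.00429 to 0.787 over its alternatives). Rmrp passed with DESeq2 (2.12, adjusted p = 0.0121), and Rpph1 without a filter on low counts (2.99, adjusted p = 8.4e-04). Genes called numbered 0 in the edgeR fit, with 1484 higher and 908 lower at an unadjusted p below 0.05, but 214 with DESeq2, 193 without a filter, 159 with TMM from genes of 200 to 500 exon bases (added after the data were seen), and 0 to 420 with a library left out (71 without B, 107 without D, 420 without E, 46 without F). Leaving out a library gave ranges of 1.92 to 2.50 for Terc, 1.51 to 2.64 for Rmrp, 0.18 to 3.52 for Rpph1, 0.84 to 2.35 for Rn7sk, 0.64 to 4.41 for Rny1, -1.56 to 2.19 for Rny3 (below 0 without D, where 1 Ybx1-KO count remained; neither Y RNA value is a bound) and -2.04 to 1.09 for Neat1. The log2 ratios ranged from -1.89 to 1.55 for Neat1 to Malat1, -0.22 to 1.36 for Rmrp to Rpph1 and 1.28 to 3.39 for RNA polymerase III to II. Neat1 reversed in edgeR fits that kept it, 1.05 with a filter of CPM above 1 in 3 libraries and 0.58 without a filter, as did the Neat1 to Malat1 ratio with a pseudocount of 5 (0.22); the cause was not tested. Neat1 was not run under limma-voom, DESeq2, robust dispersion or subtraction of the receptor-gene density, for lack of a value past the filter. No paired analysis was possible because the labels give no numbers shared between the groups. Depth limits Rny1 and Rny3.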

Other observations

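Genes nested in a protein-coding host on the opposite strand carried as many counts per kb as their hosts: in 28 pairs with at least 200 host counts per kb in library A, the antisense gene was above its host in 18, 19 and 20 pairs in A, B and C and in 16, 15 and 15 in D, E and F. Small Cajal body RNAs, a class related to the H/ACA end of Terc, had 4 of 26 tested genes with all Ybx1-KO libraries above all control libraries (15.4%, beside 4.99% of all tested genes), 0 below, and a median log2 fold change of 1.68 that was 0.61 without library F; this class was looked at after other values were seen. In the larger related classes the share above was lower, and how far low counts limited it was not tested. Small nucleolar RNAs had 13 of 414 above (3.14%) and 14 below, with a median of 2.52 that was 0 without library F. Small nuclear RNAs had 5 of 431 above (1.16%) and 13 below.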
